A study of Mus musculus with 6 samples.

Results

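Fatty acid synthesis and desaturation were followed through 10 of the 24341 genes in the deposited table, and all 10 were found and expressed in AMs. They were chosen by name for their role in the pathway, with earlier results of these data known. The genes were the transcription factor gene Srebf1, the synthesis genes Acly, Acaca and Fasn, the elongase genes Elovl5 and Elovl6, and the desaturase genes Scd1, Scd2, Fads1 and Fads2. AMs, which reside in the airspaces of the lung, were obtained by BAL from untreated female C57BL/6 mice of 6 to 10 weeks, and were either CD44+/+ or CD44-/-. CD44-/- mice lack the hyaluronan receptor CD44 in all cells and not in AMs alone. RNA was sequenced from 3 samples per genotype, and each sample combined the lavage of 2 or 4 mice, so that the spread between samples is one between pools. The lavage cells were not sorted before RNA extraction, and whether the CD44+/+ mice were littermates is not given in the sources used here.

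Cells build fatty acids from citrate. ATP citrate lyase (Acly) turns it into acetyl-CoA, acetyl-CoA carboxylase (Acaca) turns that into malonyl-CoA, and fatty acid synthase (Fasn) joins these units into the saturated fatty acid palmitate, the main acyl chain of lung surfactant. ELOVL6 lengthens palmitate, and the stearoyl-CoA desaturases SCD1 and SCD2 place the first double bond to give monounsaturated fatty acids. FADS2, ELOVL5 and FADS1 act on dietary polyunsaturated fatty acids, which they convert to longer and more unsaturated forms such as arachidonic acid. Transcription of these enzymes is driven by SREBP1, the product of Srebf1, which is itself induced by the sterol sensor LXR, and Scd1 is also a direct LXR target in macrophages. AMs take up and break down large amounts of surfactant lipid.

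Of the 10 genes, 4 lie on chromosome 11 of GRCm38 (mm10) and 4 on chromosome 19, and all are protein-coding. Scd1 (chr19:44394455-44407879, minus strand) and Scd2 (chr19:44293674-44306864, plus strand) are 87.6 kb apart, and Fads1 (chr19:10182888-10196877, plus strand) and Fads2 (chr19:10062765-10101746, minus strand) are 81.1 kb apart. The chromosome 11 genes are Srebf1 (chr11:60199089-60222581, minus strand), Acaca (chr11:84129672-84401651, plus strand), Acly (chr11:100476353-100528000, minus strand) and Fasn (chr11:120805846-120824547, minus strand). Elovl6 lies on chromosome 3 (chr3:129532355-129638495) and Elovl5 on chromosome 9 (chr9:77917364-77984519), both on the plus strand. The RefSeq promoter table for GRCm38.p6 held 9 windows for 7 of the 10 genes, since a gene can have several start sites, and Scd1, Scd2 and Fads1 were not among them. Shown are the 200 bases before the start sites of Fasn (chr11:120824548-120824747, minus strand) and Acly (chr11:100528001-100528200, minus strand), because these genes encode the entry to palmitate synthesis and its last enzyme, and their windows hold different motifs. Both are printed 5′ to 3′ in the direction of transcription, with capitals marking CCAAT, the site of the factor NF-Y, and CCGCCC, the GC box of the factor Sp1, in either orientation.

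Fasn: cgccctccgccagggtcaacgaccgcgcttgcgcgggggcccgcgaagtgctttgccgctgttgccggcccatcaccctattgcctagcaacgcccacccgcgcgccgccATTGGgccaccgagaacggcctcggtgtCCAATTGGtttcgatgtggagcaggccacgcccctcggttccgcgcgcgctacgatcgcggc

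Acly: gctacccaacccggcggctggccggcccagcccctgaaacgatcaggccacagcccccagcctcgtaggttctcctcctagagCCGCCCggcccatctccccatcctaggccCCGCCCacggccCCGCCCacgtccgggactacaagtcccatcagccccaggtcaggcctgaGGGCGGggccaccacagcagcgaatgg

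The Fasn stretch held 3 matches to CCAAT, a pair of which overlap in opposite orientations, and none to the GC box. The Acly stretch held 4 GC boxes and no CCAAT. In the full 300-base windows, CCAAT was found in 5 of the 9 windows (those of Fasn, Acly and Elovl5 and some of Srebf1) and in 37.4% of all 32851 promoter windows. CCGCCC was found in 4 of the 9 windows and in 35.7% of all windows. The core of the sterol regulatory element that binds SREBP, searched as TCACNCCAC on both strands, was found in none of the 9 windows and in 1.24% of all windows. At so low a share, its absence from 9 windows cannot tell these genes from others, nor show that they lack such an element. The Acaca window (chr11:84195188-84195487) lies inside the span of the gene.

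The labels were checked first on Cd44, which was at 540.1, 534.7 and 526.8 FPKM (fragments scaled to transcript length and to the size of the library) in CD44+/+ samples and at 54.7, 54.5 and 51.4 FPKM in CD44-/- samples, a log2 fold change of -3.32. All 10 markers of AMs ranked at or above the 98.6th percentile of mean FPKM over all genes, and their summed level was 17570 to 20350 FPKM in CD44+/+ and 17090 to 21370 FPKM in CD44-/- samples. Most of that sum was Chil3, at 10700 to 13500 and 10300 to 14200 FPKM. Of the 10, 4 had a higher mean in CD44-/-. Without overlap, Krt79 (log2 fold change -0.38, adjusted p = 0.185 in limma) and Mrc1 (-0.08) were lower in CD44-/- and Itgax (0.08) was higher. Depth relative to CD44+/+ replicate 1 lay between 0.809 and 1.05, and absolute depth is unknown. Markers of other cells were present in both genotypes, and none of the markers listed was at 0 in all samples. The summed level of 10 alveolar type 2 cell markers was 96.0 to 114.5 FPKM in CD44+/+ and 101.5 to 176 FPKM in CD44-/- samples, and 7 of the 10 had a higher mean in CD44-/-. Monocyte markers summed to 8.87 to 9.02 FPKM in CD44+/+ and 10.4 to 12.3 FPKM in CD44-/- samples (6 genes, 5 of them with a higher mean in CD44-/-), and airway secretory cell markers to 856 to 1419 and 660.5 to 1156 FPKM (8 genes, 0 higher). Erythroid markers (5 genes) summed to 38.3 FPKM in CD44+/+ replicate 2 and 110.5 FPKM in CD44-/- replicate 2, against 5.62 to 9.89 FPKM in the other 4 samples. Neutrophil markers (5 of 6 found) summed to 33.6 to 79.4 and 45.8 to 52.7 FPKM, and lymphocyte markers (5 of 6 found) to 0.801 to 1.76 and 0.657 to 0.769 FPKM. In such bulk samples, fewer cells of a type and less RNA per cell cannot be told apart, and the part of other cells in the differences given here was not tested.

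The genotypes were compared to ask whether AMs without CD44 carry a different program for making and desaturating fatty acids. Scd1 had a mean in CD44-/- AMs 1.85 times that in CD44+/+ AMs, while Fads2 had 0.468 times and Fasn 0.806 times the CD44+/+ mean. The remaining 7 genes differed by at most 21.5% in their means. None of the 10 genes passed an adjusted p of 0.05 (limma on log2(FPKM + 0.1), Benjamini-Hochberg adjustment over the 10800 genes whose mean reached 0.5 FPKM), and neither did any with the replicate number as a block, while 0.111% of all tested genes passed. At an unadjusted p under 0.05 there were 3 of the 10 genes, Scd1 higher and Fasn and Fads2 lower in CD44-/- AMs. Of all tested genes 4.75% were higher and 2.94% were lower at that limit. Genes higher in CD44-/- made up 61.7% of these, against 53.2% after median-ratio scaling and 50.5% after quantile normalization. The samples of the genotypes did not overlap for Srebf1 and Scd1, which were higher in CD44-/-, and for Fads2, which was lower. Fads2 reached a mean of 0.5 FPKM only through the CD44+/+ samples. No overlap was seen in 6.75% (higher) and 4.88% (lower) of all tested genes. The median log2 fold change, CD44-/- over CD44+/+, was -0.02 for the 10 genes and 0.01 for all tested genes, and the median of its absolute size was 0.12 and 0.07.

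**Figure D1:**
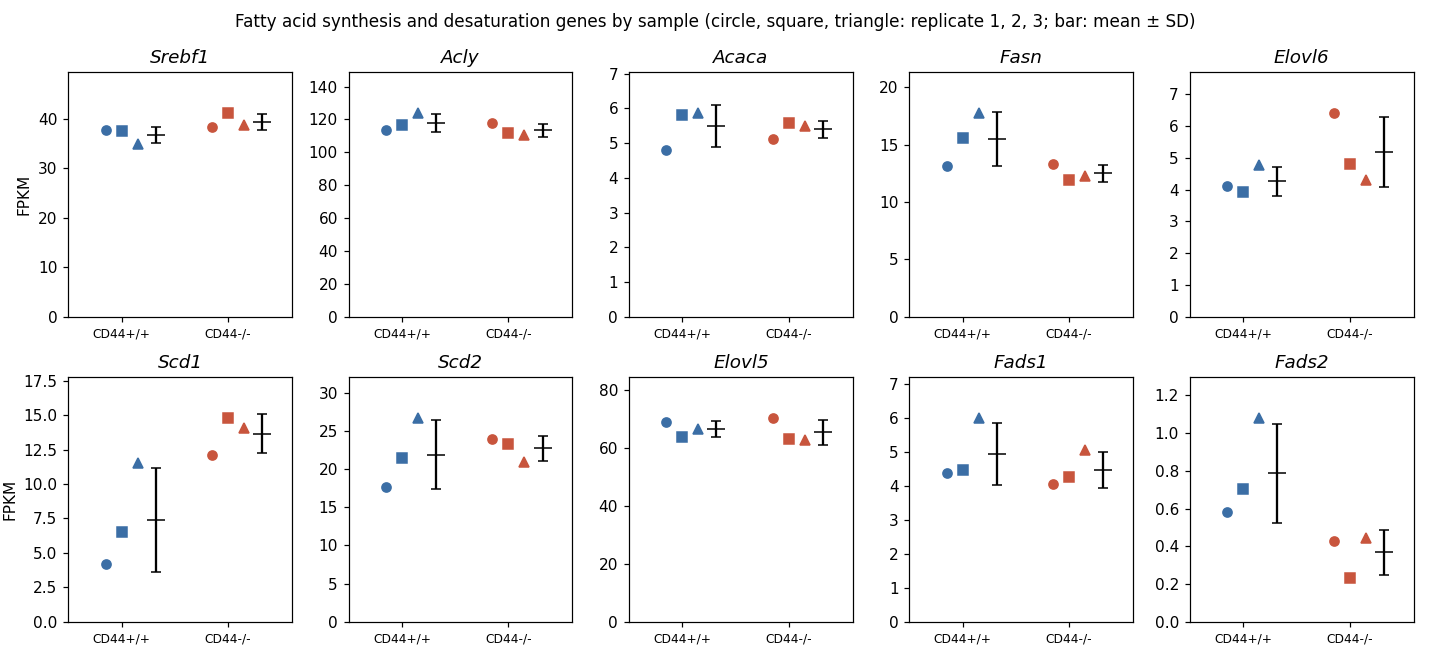
FPKM of each of the 10 genes (vertical axes from 0) in the 3 CD44+/+ samples (blue) and the 3 CD44-/- samples (red), with symbols for replicates 1, 2 and 3 and a bar for the mean ± SD (n = 3). Scd1 runs from 4.18 to 11.5 FPKM in CD44+/+ and from 12.1 to 14.8 FPKM in CD44-/-, and Fads2 from 0.579 to 1.08 and from 0.232 to 0.442 FPKM.

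The level of the genes, which FPKM sets per transcript length, spanned a wide range. Acly was the most abundant, at 118 ± 5.47 FPKM (SD, n = 3) in CD44+/+ AMs, followed by Elovl5, Srebf1, Scd2 and Fasn. In the CD44+/+ samples these 5 genes kept that order without overlap, apart from Scd2 and Fasn, whose ranges (17.6 to 26.7 and 13.1 to 17.8 FPKM) met. Scd1, Acaca, Elovl6 and Fads1 lay between 3.91 and 11.5 FPKM in CD44+/+ AMs, and their ranges overlapped except for Acaca (4.79 to 5.88 FPKM) and Elovl6 (3.91 to 4.78 FPKM), which nearly met. Fads2 was the least abundant, at 0.787 ± 0.261 FPKM (SD, n = 3). In CD44-/- AMs Scd1 stood level with Fasn, at 13.7 ± 1.40 against 12.5 ± 0.721 FPKM (SD, n = 3).

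Srebf1, which encodes SREBP1, was at 37.7, 37.6 and 35.0 FPKM in CD44+/+ AMs and at 38.4, 41.3 and 38.7 FPKM in CD44-/- AMs. Every CD44-/- sample was thus above every CD44+/+ sample, by a margin smaller than the SD of either genotype. The log2 fold change was 0.10 (standard error 0.06, 95% interval -0.03 to 0.23, adjusted p = 0.774), and 0.07 without CD44+/+ replicate 3. The interval leaves room for a level from 0.982 to 1.17 times that of CD44+/+ AMs. The table has one row for the gene, so the SREBP1a and SREBP1c transcripts were not separated.

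Acly, the source of cytosolic acetyl-CoA, had 113.6, 116.3 and 124.1 FPKM in CD44+/+ samples and 117.6, 111.6 and 110.7 FPKM in CD44-/- samples. The genotypes overlapped (log2 fold change -0.06, standard error 0.05, 95% interval -0.18 to 0.06, adjusted p = 0.923), and the log2 fold change was -0.02 without CD44+/+ replicate 3. Acaca, the enzyme of the committed step, had 4.79, 5.82 and 5.88 FPKM in CD44+/+ samples and 5.13, 5.59 and 5.50 FPKM in CD44-/- samples. These values also overlapped, and the log2 fold change (-0.02, standard error 0.10, 95% interval -0.25 to 0.21, adjusted p = 0.989) changed sign when single samples were left out. Of the 42-base windows of the longest Acaca transcript, 54.3% occur identically in the transcript of the gene Gm5182, so the authors' counting could have split these reads. Fasn had 13.1, 15.6 and 17.8 FPKM in CD44+/+ samples and 13.3, 11.9 and 12.3 FPKM in CD44-/- samples. The CD44-/- samples were below CD44+/+ replicates 2 and 3, and CD44+/+ replicate 1 lay among them. The log2 fold change of Fasn was -0.30 (standard error 0.11, 95% interval -0.55 to -0.05, unadjusted p = 0.0236, adjusted p = 0.538 in limma). It was -0.19 without CD44+/+ replicate 3 and -0.41 without CD44+/+ replicate 1.

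Scd1, the main stearoyl-CoA desaturase of liver and fat, had 4.18, 6.49 and 11.5 FPKM in CD44+/+ samples and 12.1, 14.8 and 14.1 FPKM in CD44-/- samples. All CD44-/- samples were above all CD44+/+ samples, but CD44+/+ replicate 3 was nearer to the CD44-/- samples than to the other two of its own genotype. The log2 fold change was 0.99 (standard error 0.30, 95% interval 0.31 to 1.67, unadjusted p = 0.00952, adjusted p = 0.427 in limma), which is 239th in the order of p over all genes tested. It was 0.65 without CD44+/+ replicate 1 and 1.37 without CD44+/+ replicate 3. The spread lay in the CD44+/+ samples, whose highest value was 2.75 times the lowest, against 1.22 times in the CD44-/- samples. Among the 7888 tested genes whose mean reached 5 FPKM, a spread that wide in the CD44+/+ samples was found in 25 with Scd1 counted, or 0.317%. Alveolar type 2 cells also express Scd1, and their marker Sftpc, surfactant protein C, had 15.5, 6.83 and 9.72 FPKM in CD44+/+ and 22.8, 12.4 and 74.2 FPKM in CD44-/- samples. Sftpc overlapped between genotypes (log2 fold change 1.44, adjusted p = 0.591 in limma). Sftpb, surfactant protein B, was higher in every CD44-/- sample, with 2.13, 1.26 and 1.48 FPKM in CD44+/+ and 3.80, 2.32 and 6.53 FPKM in CD44-/- samples (log2 fold change 1.24, adjusted p = 0.369). Both had an unadjusted p under 0.05 in limma, the only 2 of the 10 type 2 cell markers to do so. Of these 10 markers, 7 had a higher mean in CD44-/-. Abca3 (log2 fold change -0.04), Napsa (-0.01) and Etv5 (0.461 FPKM in CD44+/+ and 0.405 FPKM in CD44-/-) had a lower one. The part of type 2 cells in the Scd1 difference was not tested.

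Scd2, the paralogue next to Scd1, had 17.6, 21.4 and 26.7 FPKM in CD44+/+ samples and 23.9, 23.3 and 20.9 FPKM in CD44-/- samples. The CD44-/- values fell inside the CD44+/+ range, with a log2 fold change for Scd2 of 0.07 (standard error 0.13, 95% interval -0.24 to 0.38, adjusted p = 0.971), and of -0.0766 without CD44+/+ replicate 1. Read-length windows of 42 bases are shared in part between these paralogues, for 5.95% of the Scd1 transcript and 5.08% of the Scd2 transcript, counting all other genes. The other members of the family were close to absent. Scd3 was listed at 0 in all samples but CD44-/- replicate 1 (0.0155 FPKM). Scd4, below the limit for testing, had 0.0349, 0.0948 and 0.116 FPKM in CD44+/+ and 0.177, 0.193 and 0.166 FPKM in CD44-/- samples, without overlap. Of the 4791 windows of the Scd1 transcript, 116 also occur in Scd4, and the part of Scd1 reads in these low Scd4 values was not tested. Elovl6, which lengthens palmitate to stearate, the substrate of SCD1, had 4.10, 3.91 and 4.78 FPKM in CD44+/+ samples and 6.42, 4.81 and 4.31 FPKM in CD44-/- samples. Its genotypes overlapped and CD44-/- replicate 1 stood above the rest, with a log2 difference of 0.26 (standard error 0.15, 95% interval -0.09 to 0.61, adjusted p = 0.799), and of 0.10 without that sample. For Elovl6, 5.6% of windows occur in other genes.

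**Figure D2:**
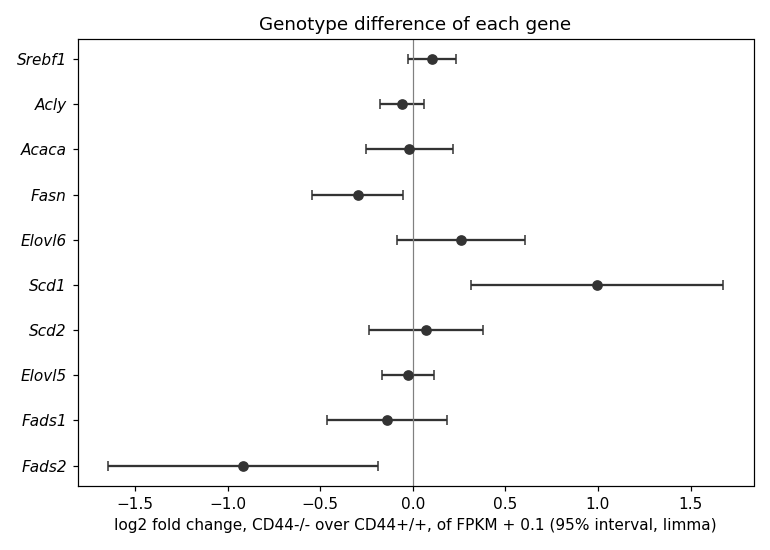
Log2 fold change of FPKM + 0.1, CD44-/- over CD44+/+, on the horizontal axis for each of the 10 genes, with 95% intervals from limma (3 samples per genotype). The intervals of Scd1, Fasn and Fads2 lie to one side of 0 and those of the other 7 genes include 0.

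On the polyunsaturated branch, Fads2, the first and rate-limiting desaturase, had 0.579, 0.701 and 1.08 FPKM in CD44+/+ samples and 0.430, 0.232 and 0.442 FPKM in CD44-/- samples. Every CD44-/- sample was below every CD44+/+ sample. The log2 fold change was -0.92 (standard error 0.32, 95% interval -1.65 to -0.19, unadjusted p = 0.0195, adjusted p = 0.513 in limma). The gene was close to the limit for testing of 0.5 FPKM. Its mean was 0.787 FPKM in CD44+/+ and 0.368 FPKM in CD44-/- samples. It thus reached that limit only through the CD44+/+ samples, a selection that favours a lower level in CD44-/-. With a pseudocount of 1 in place of 0.1 the log2 fold change of Fads2 was -0.38. Fads1, the next desaturase, had 4.38, 4.47 and 6.01 FPKM in CD44+/+ samples and 4.05, 4.28 and 5.06 FPKM in CD44-/- samples. These overlapped (log2 fold change -0.14, standard error 0.14, 95% interval -0.46 to 0.19, adjusted p = 0.936), and the direction turned without CD44+/+ replicate 3 (0.0060). Elovl5, the elongase of this branch, had 69.1, 63.7 and 66.7 FPKM in CD44+/+ samples and 70.4, 63.2 and 62.6 FPKM in CD44-/- samples. The log2 fold change of Elovl5 was -0.03 (standard error 0.06, 95% interval -0.17 to 0.11, adjusted p = 0.979), and the interval runs from 0.892 to 1.08 times the CD44+/+ level. Its sign turned without CD44+/+ replicate 1 (0.0027) or CD44-/- replicate 3 (0.0052). The smallest p that an exact permutation test (two-sided) allows for 3 samples per genotype is 0.1, which was its value for Srebf1, Scd1 and Fads2.

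Ratios of a pair of genes within a sample do not depend on how that sample was scaled, and 4 were compared. The Scd1/Fasn ratio was 0.319, 0.416 and 0.646 in CD44+/+ samples and 0.910, 1.24 and 1.15 in CD44-/- samples, with means of 0.460 ± 0.168 and 1.10 ± 0.172 (SD, n = 3). Scd1 was below Fasn in all CD44+/+ samples and above it in CD44-/- replicates 2 and 3. The Scd1/Scd2 ratio was 0.2375, 0.303 and 0.431 in CD44+/+ and 0.506, 0.635 and 0.675 in CD44-/- samples, again without overlap. The Fads2/Fads1 ratio was 0.132, 0.157 and 0.180 in CD44+/+ samples and 0.106, 0.0542 and 0.0874 in CD44-/- samples, lower without overlap. For each of these 3 ratios the exact two-sided permutation test gave p = 0.1, the smallest possible, and 0.133 after adjustment over the 4 ratios. The Elovl6/Elovl5 ratio overlapped, from 0.0593 to 0.0717 in CD44+/+ and 0.0689 to 0.0912 in CD44-/- samples (exact two-sided permutation test, p = 0.2, adjusted 0.2).

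**Figure D3:**
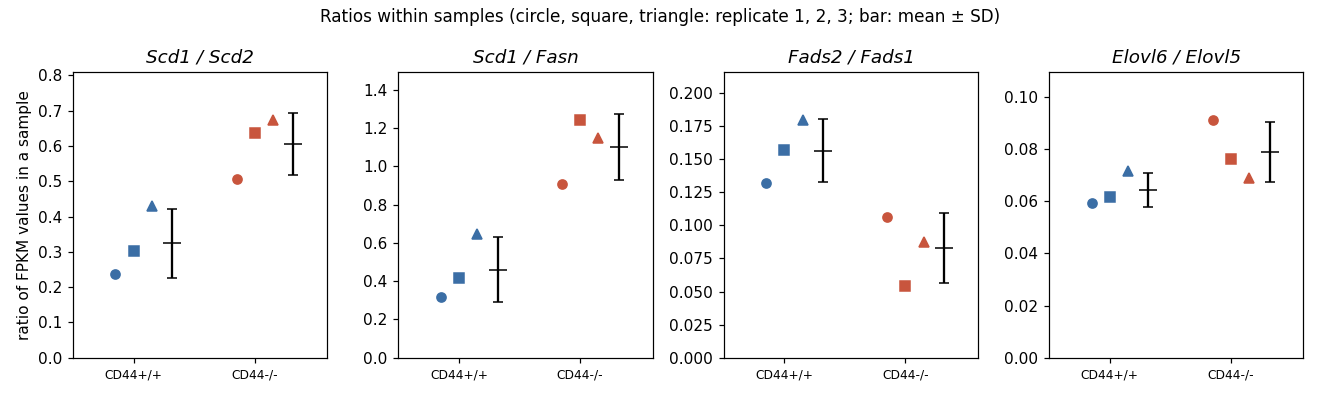
Ratio of the FPKM values of a pair of genes within each sample (vertical axes from 0) for 3 CD44+/+ samples (blue) and 3 CD44-/- samples (red), with a bar for the mean ± SD (n = 3). Scd1/Fasn and Scd1/Scd2 are higher in every CD44-/- sample, Fads2/Fads1 is lower in every CD44-/- sample, and Elovl6/Elovl5 overlaps.

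The genes also varied together among samples of one genotype. In CD44+/+ AMs, Acly, Acaca, Fasn, Scd1, Scd2, Fads1 and Fads2 were all lowest in replicate 1, highest in replicate 3 and intermediate in replicate 2. This order was thus seen in 7 of the 10 genes and in 9.4% of all tested genes, a count chosen after the values were seen. Srebf1 had the opposite extremes, with its lowest CD44+/+ value in replicate 3. Elovl6 was also highest in CD44+/+ replicate 3, so that 8 of 10 genes were highest there, against 18.3% of all tested genes, of which 57.0% were highest in replicate 1. These shares moved with the scaling: after median-ratio scaling 9 of the 10 genes and 33.5% of all tested genes were highest in replicate 3 (35.7% in replicate 1), and after quantile normalization 9 of the 10 and 30.5% (39.7% in replicate 1). The order itself was seen after median-ratio scaling in 7 of the 10 genes and 20.1% of all tested genes, and after quantile normalization in 8 of the 10 and 17.1%. Of the 10 AM markers, 3 (Marco, Car4 and Krt79) had this order in the CD44+/+ samples, 4 (Siglecf, Mrc1, Ear2 and Cidec) had the reverse order and 3 had neither. In CD44-/- AMs 5 of the 10 genes were highest in replicate 1, 3 in replicate 2 and 2 in replicate 3, near the shares of all tested genes (43.6%, 31.6% and 24.8%).

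**Figure D4:**
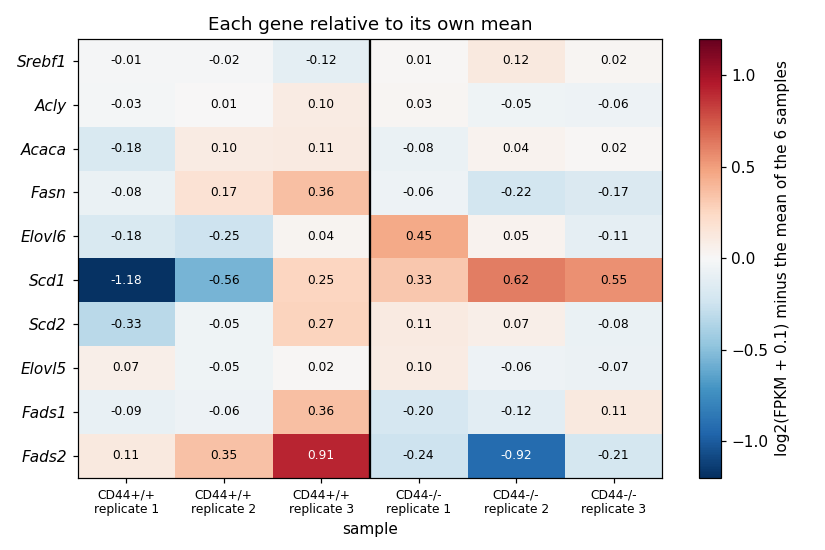
Log2(FPKM + 0.1) of each gene (rows) in each sample (columns) minus the mean of that gene over the 6 samples, with red above and blue below the mean. In the CD44+/+ columns Scd1 runs from -1.18 to 0.25 and Fads2 from 0.11 to 0.91, and in the CD44-/- columns Scd1 is above and Fads2 below its mean in every sample.

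The other genes of the pathway were followed in 5 lists of 62 genes, of which 47 reached the limit for testing. None had an adjusted p under 0.05 in limma, or with the replicate block (smallest adjusted p = 0.256), while at an unadjusted p under 0.05 there were 5 higher and 4 lower, or 3 higher and 2 lower with the replicate block, where Me1, Degs1, Elovl1 and Fabp5 no longer reached that limit. Of all tested genes, 7.69% were under it, and 9.71% with the block. The median log2 fold change of the 47 pathway genes was -0.00095. Among 13 tested genes of lipogenic control (median log2 fold change 0.01), the 4 with an unadjusted p under 0.05 divided evenly. Nr1h3, the gene of LXRα, had 32.2, 36.3 and 33.6 FPKM in CD44+/+ and 37.3, 40.5 and 41.4 FPKM in CD44-/- samples (log2 fold change 0.22, standard error 0.07, adjusted p = 0.415). Rxra, the gene of its partner RXRα, had 105.6, 101.0 and 101.9 FPKM and 115.8, 110.7 and 113.2 FPKM (log2 fold change 0.14, standard error 0.05, adjusted p = 0.484). Both were higher in every CD44-/- sample. Srebf2, the paralogue that favours sterol synthesis genes, had 41.1, 42.8 and 49.8 FPKM in CD44+/+ and 39.0, 31.3 and 35.2 FPKM in CD44-/- samples, lower in each CD44-/- sample (log2 fold change -0.34, standard error 0.10, adjusted p = 0.385). Insig1, which holds SREBP proteins in the endoplasmic reticulum and is itself an SREBP target, had 28.6, 32.5 and 33.4 FPKM in CD44+/+ and 29.1, 22.2 and 21.6 FPKM in CD44-/- samples (log2 fold change -0.38, standard error 0.12, adjusted p = 0.427). Mlxipl, the gene of the glucose-responsive lipogenic factor ChREBP, was at a mean of 0.0046 FPKM in CD44+/+ and 0.0049 FPKM in CD44-/- AMs, and Thrsp was also below the limit for testing.

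Of 10 tested genes for carbon and NADPH supply (median log2 fold change -0.03), 1 had an unadjusted p under 0.05. This was Me1, the NADPH-producing malic enzyme, with 0.868, 1.12 and 1.26 FPKM in CD44+/+ and 0.814, 0.766 and 0.452 FPKM in CD44-/- samples, lower in each CD44-/- sample (log2 fold change -0.63, standard error 0.26, adjusted p = 0.619). Without CD44-/- replicate 3 the log2 fold change of Me1 was -0.40. Of 6 tested genes for other desaturation (median -0.04), Degs1, the dihydroceramide desaturase, had a log2 fold change of 0.14 (adjusted p = 0.633) with overlap. Of 7 tested genes for other elongation (median -0.05), Elovl1, the elongase of very long saturated chains, had 80.4, 81.3 and 79.5 FPKM in CD44+/+ and 75.8, 71.2 and 76.1 FPKM in CD44-/- samples (log2 fold change -0.11, standard error 0.05, adjusted p = 0.644). Of 11 tested genes for acyl-CoA use (median 0.12), Lpcat1, which makes dipalmitoyl phosphatidylcholine, had 3.05, 2.69 and 3.55 FPKM in CD44+/+ and 4.51, 3.81 and 3.71 FPKM in CD44-/- samples. Its values did not overlap (log2 fold change 0.37, standard error 0.13, adjusted p = 0.532). The fatty acid binding protein gene Fabp5 had 267.2, 327.4 and 369.1 FPKM in CD44+/+ and 424.2, 366.0 and 375.1 FPKM in CD44-/- samples, with overlap (log2 fold change 0.28, standard error 0.11, adjusted p = 0.586). Without CD44+/+ replicate 1 the log2 fold change of Fabp5 was 0.16. Lpcat1 is also made by alveolar type 2 cells, whose part in its difference was not tested.

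**Figure D5:**
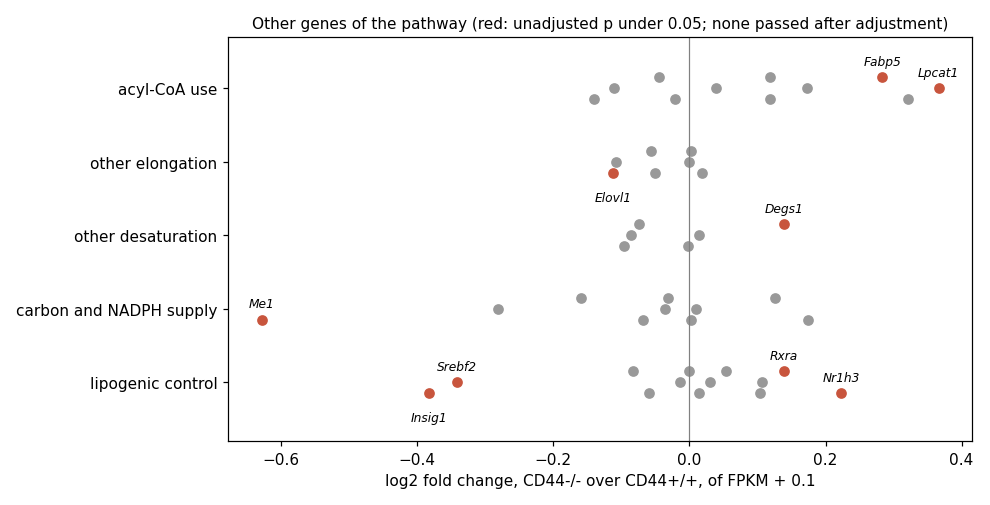
Log2 fold change of FPKM + 0.1, CD44-/- over CD44+/+ (horizontal axis), of the 47 tested genes of 5 lists (rows), in red where the unadjusted p was under 0.05. The 9 red genes include Nr1h3, Rxra, Lpcat1, Fabp5 and Degs1 above 0 and Srebf2, Insig1, Me1 and Elovl1 below 0, and no gene passed after adjustment.

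Genes with the profile most like those of Srebf1, Fasn and Scd1 were looked up by Pearson's r of log2(FPKM + 0.1) over the 6 samples, as a description in which all points share the same libraries. For Srebf1 they were Csf3r (r = 0.993), 2700049A03Rik (0.993) and Usp37 (0.992). For Fasn they were Anpep (0.992), Ckap4 (0.986) and Taf6 (0.986), and for Scd1 Arl3 (0.982), Fam221a (0.974) and Cltb (0.974). Csf3r is also on the neutrophil list, of which 5 genes were found. Of these, 2 (Csf3r and Cxcr2) had a higher mean in CD44-/-, while S100a8, S100a9 and Retnlg had a lower one. None of the other 9 genes of fatty acid synthesis was among the 3 most alike. With 6 samples high values are common, since 32, 25 and 19 genes had an r above 0.95 with Srebf1, Fasn and Scd1.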

How the data were processed

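RNA of AMs from CD44+/+ and CD44-/- mice was measured in 3 samples per genotype. The authors used STAR for alignment to mm10 and Cufflinks for quantification, and the deposited FPKM values (24341 genes) are scaled for depth and transcript length. Name and position columns of the table are in another order than the identifiers (0 rows match), so values were taken by identifier. The authors' Cuffdiff columns (group means, fold changes, p-values) were not used. Genotype and replicate number came from the labels. 1 gene without a value in 1 sample was left out.

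Genes whose mean reached 0.5 FPKM (10800) were compared on log2(FPKM + 0.1) with limma 3.58.1 in R 4.3.3 (lmFit, eBayes with trend, two-sided, Benjamini-Hochberg adjustment over all genes tested, threshold 0.05). The study's Cuffdiff test works on reads and could not be repeated. p-values measure the spread between pools. The script was checked on data simulated from these samples. The labels do not say that same-numbered samples were collected together, so the main fit had no block. For same-numbered samples, deviations from the genotype means correlated weakly, at 0.212, 0.132 and 0.211 over all tested genes. Samples of different numbers were not compared in this way, so a pairing is not established. The replicate number was fitted as a block as an alternative.

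The genes and lists were chosen with earlier results of these data known. Named genes were the 10 genes, Cd44, list members with an unadjusted p under 0.05, and the 3 genes most like Srebf1, Fasn and Scd1. Scd3, Scd4, Mlxipl, Thrsp, and markers named with their values were picked after their values were seen. Positions came from GENCODE M21 (GRCm38) and promoters from RefSeq (GRCm38.p6). Relative depth came from the commonest ratio of values under 0.02 FPKM, each taken as a single fragment. Without read numbers no counting interval is given. Alternatives were other pseudocounts, filters, scalings and variance settings, the block, and leaving out each sample.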

Additional observations from a re-analysis of the deposited data

How the results depend on the processing

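None of the 10 genes and none of the other pathway genes passed an adjusted p of 0.05 under any of the 15 alternatives run. Among the 10 genes, the smallest adjusted p in limma was 0.0936 for Scd1, 0.132 for Fasn and 0.273 for Fads2. Fads2 could not be tested at a mean of at least 1 FPKM. Of the other pathway genes, Insig1 came nearer, at an adjusted p of 0.0618 without CD44-/- replicate 1 (log2 fold change -0.52). The log2 fold change of Scd1 stayed between 0.65 and 1.37, that of Fasn between -0.41 and -0.19, and that of Fads2 between -1.09 and -0.38, lowest in size with a pseudocount of 1. An unadjusted p under 0.05 was lost by Scd1 with robust eBayes, by Fasn without CD44+/+ replicate 2 or 3 or CD44-/- replicate 2 or 3, and by Fads2 without CD44+/+ replicate 3 or CD44-/- replicate 2. Without CD44-/- replicate 3, Elovl6 was also under that limit. With single samples left out, the direction reversed for Acaca (-0.11 to 0.0325, above 0 without CD44+/+ replicate 2 or 3 or CD44-/- replicate 1), Scd2 (-0.0766 to 0.22, below 0 without CD44+/+ replicate 1), Elovl5 (-0.0794 to 0.0052, above 0 without CD44+/+ replicate 1 or CD44-/- replicate 3) and Fads1 (-0.23 to 0.0060, above 0 without CD44+/+ replicate 3). The number of all genes that passed was 12, 9 with the replicate block, 7 without a filter on low values, where more genes were tested, and 6 to 36 with single samples left out, lowest without CD44-/- replicate 2 and highest without CD44+/+ replicate 1 (22 without CD44-/- replicate 1, 7 without CD44+/+ replicate 2). The order within CD44+/+ samples under other scalings was an alternative chosen after seeing the data. With the replicate block, none of the 10 genes crossed an unadjusted p of 0.05 in either direction, whereas Me1, Degs1, Elovl1 and Fabp5 lost it. Of the 9 other pathway genes under that limit, 3 (Srebf2, Insig1 and Nr1h3) were under it with each sample left out in turn. The cause of these differences was not tested. Absolute depth is unknown, and Fads2 is the gene whose low level leaves most room for counting error.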
